A study of Rattus norvegicus with 16 samples.

Results

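Genes of the neuronal cytoskeleton and of synaptic vesicle release were examined in rat muscle. The 10 genes were Snap25, Gap43, Nefl, Nefm, Nefh, Mapt, Map1a, Syp, Syt1 and Stx1a. They were taken as every probe set of the array to which the platform table gives that symbol and no other. This gave 19 of the 8799 probe sets, and 10 of the 4737 genes that the array names in this way. Each gene had between 1 and 4 probe sets, and each probe set was followed on its own. RefSeq places Snap25 and Map1a on chromosome 3, Nefl and Nefm on chromosome 15, Nefh on 14, Mapt on 10, Gap43 on 11, Stx1a on 12, Syt1 on 7 and Syp on X.

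The series holds 16 single-colour arrays of total RNA from rat skeletal muscle. EOM stands for extraocular muscle, which turns the eyeball, and was on 4 arrays numbered 1 to 4. TA_6h is a muscle labelled TA and collected at 6 hours, on 8 arrays, and TA_1h is the same muscle collected at 1 hour, on 4 arrays. The labels name no strain, age, genotype or treatment, do not name the start point of the 6 hours and 1 hour, and give no time for EOM. Arrays of a TA group with the same number were taken as 1 sample, which leaves 4 numbered samples in EOM, 4 in TA_6h and 2 in TA_1h. Each EOM sample is 1 array, while each TA sample is the mean of 2 arrays. Nothing in the labels says that the samples came from separate animals. The p-values therefore set a difference against the spread of these samples only, and that spread may be technical.

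A motor axon keeps its calibre with neurofilaments, built from the light, medium and heavy chains Nefl, Nefm and Nefh, and its microtubules are bound by Mapt (tau) and Map1a. At its terminal, vesicles that carry the membrane protein Syp (synaptophysin) fuse when calcium binds the vesicle sensor Syt1 (synaptotagmin 1) and the SNARE proteins Snap25 and Stx1a (syntaxin 1A) zip up with their vesicle partner. Gap43 is a growth cone protein of extending axons and is known in Schwann cells and at motor terminals as well. The cell bodies of motor neurons lie in the brain stem and spinal cord, outside the muscle.

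Markers of muscle fit the labels in part. Myh13, the myosin heavy chain named for extraocular muscle, had intensities of 7213 to 8013 on the EOM arrays, against 41.9 to 415 in TA_6h and 142 to 436 in TA_1h. Of the 7 fibre-defining genes on the array, Myl1, Tnni2, Tnnt3, Tnnc2 and Des were far above the floor on all 16 arrays. Ckm, the muscle creatine kinase, was below the floor on 3 of the 8 TA_6h arrays and on 1 TA_1h array, with values down to 0.0219, and Acta1 was at 7.17 on 1 TA_1h array. Values below 0 occurred in EOM only, where they made up 23.2 to 25.4% of each array. Wherever EOM is set against TA, the muscle and the step that summarised the probes therefore cannot be told apart. On 5 of the 12 TA arrays (TA_6h 3a, 3b, 4a and 4b and TA_1h 2b) the middle probe set of the beta-actin control read only 0.146 to 0.390 of its 3′ probe set, where the other 7 TA arrays had 0.815 to 1.28 (a low beta-actin ratio). Where a call or a size below turned on this split, values with and without those arrays are given. TA_6h arrays 1b and 2b and TA_1h arrays 1a and 2a had a low middle probe set of the Gapdh control, at 856 to 2184. It read 6698 to 51038 on the remaining TA arrays and 10658.5 to 14811 in EOM. In whole muscle, fewer cells of a type and less RNA per cell cannot be told apart.

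For the tests, values under an intensity of 56.5, the 25th percentile of all values, were raised to it (the floor), and log2 was taken. Of the 19 probe sets, 14 were above the floor on at least 4 arrays and were tested, and 5 were not. Of the 14, 8 exceeded the floor on each of the 16 arrays. A probe set passes this filter through the group in which it is bright, so the counts that follow describe the tested probe sets and not the 10 genes as such. Against TA_6h, EOM was higher in 2 of the 14 and lower in 8 at a limma adjusted p under 0.05, where 21.9% of all 7640 tested probe sets were higher and 25.3% lower. Against TA_1h it was higher in 2 and lower in 7, where 17.7% of all tested were higher and 19.5% lower. The 2 comparisons share the EOM arrays. The median log2 difference of the 14 was -1.07 against TA_6h and -1.05 against TA_1h, beside -0.11 and -0.094 over all tested probe sets. Of the 19, 1 had all 4 EOM arrays above all 12 TA arrays, 10 had them all below, and 8 overlapped. Among the 14 tested these counts were 1, 6 and 7, where 14.7% of all tested probe sets lay all above and 21.8% all below. No such share was counted with untested probe sets included. The untested ones among the 10 lay under the floor on nearly all arrays, so no order can be read for them.

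Snap25, the SNARE protein of the nerve terminal membrane, gave the only probe set of the 19 that was above TA on every EOM array, and a second probe set that was lower. The probe set AB003991_at had intensities of 961, 1241, 1073 and 1374 on EOM arrays 1 to 4. In TA_6h its lowest, median and highest values were 72.5, 209 and 385, and the 4 TA_1h arrays gave 124, 169, 208 and 318. The dimmest EOM array was thus far above the brightest TA array. The means were 1162 ± 182 in EOM and 217 ± 80.2 in TA_6h (SD over numbered samples, n = 4 each), with 205 ± 82.3 in TA_1h (n = 2). The difference was 5.89-fold against TA_6h (log2 2.56 ± 0.31, SE, limma adjusted p = 0.000124) and 5.97-fold against TA_1h (2.58 ± 0.38, limma adjusted p = 0.000624). TA arrays of low beta-actin ratio read 206 to 385 here and the other TA arrays 72.5 to 213. Without the low-ratio arrays the log2 difference was 3.06 from TA_6h and 2.73 from TA_1h, both called by limma. With only those arrays as TA it was 2.06 from TA_6h, also called. From TA_1h it was then 1.86, with array 2b as the whole of that group.

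The probe set AB003991_g_at, made from the same sequence entry, went the other way. It had 56.3, 103, 51.4 and 77.0 in EOM, with EOM arrays 1 and 3 below the floor. TA_6h had a lowest value of 40.6, a median of 159 and a highest of 183, and TA_1h had 323, 237, 233 and 58.2. The groups overlapped through TA_6h array 4b and TA_1h array 2b, both of low beta-actin ratio. EOM was lower by a log2 difference of -0.99 ± 0.32 against TA_6h (limma adjusted p = 0.027) and of -1.34 ± 0.39 against TA_1h (limma adjusted p = 0.021). Of its arrays, 2 of the 4 in EOM and 1 of the 8 in TA_6h (4b) were raised to the floor, so the first value is no bound in either direction. Without the low-ratio TA arrays the values were -1.17 and -1.84, both called, and with only those as TA the value against TA_6h was -0.80 and not called. The call against TA_6h was also lost without EOM replicate 1 or 3 (-0.88 each), without TA_6h replicate 1, 2 or 3 (-0.94 to -0.92), after quantile normalization (-0.36) and with the floor at the 40th percentile (-0.22), and it was made in 14 of 25 alternatives. The call against TA_1h was lost without TA_1h replicate 1 (-0.72) and after quantile normalization (-0.72), the value was -1.97 without TA_1h replicate 2, and with TA_1h array 2b as the whole of that group the sign turned (0.28).

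Pairs of this kind with opposite calls occurred for other genes on the array too. It holds 776 tested pairs of an _at and a _g_at probe set of the same entry, counted after the Snap25 values were seen. In 210 of these pairs both were called between EOM and TA_6h, and in 49 of the 210 (23.3%) the calls had opposite signs, 26 of them with _at higher and _g_at lower as in Snap25. The other Snap25 probe sets were dim. U56261_s_at read -7.33, 27.3, -9.6 and 32.7 in EOM, between 19.6 and 113 in TA_6h with a median of 28.9, and 60.3, 12.1, 45.9 and 3.17 in TA_1h. It was below the floor on all EOM arrays and on 8 of the 12 TA arrays, and no difference was called (-0.20 ± 0.18 against TA_6h, limma adjusted p = 0.38). AB003992_s_at read 1.18, -9.62, -0.9 and -36.5 in EOM, 3.88 to 17.5 in TA_6h with a median of 7.79, and 10.8, 6.24, 4.51 and 8.61 in TA_1h. It was below the floor on all 16 arrays and was not tested.

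**Figure D1:**
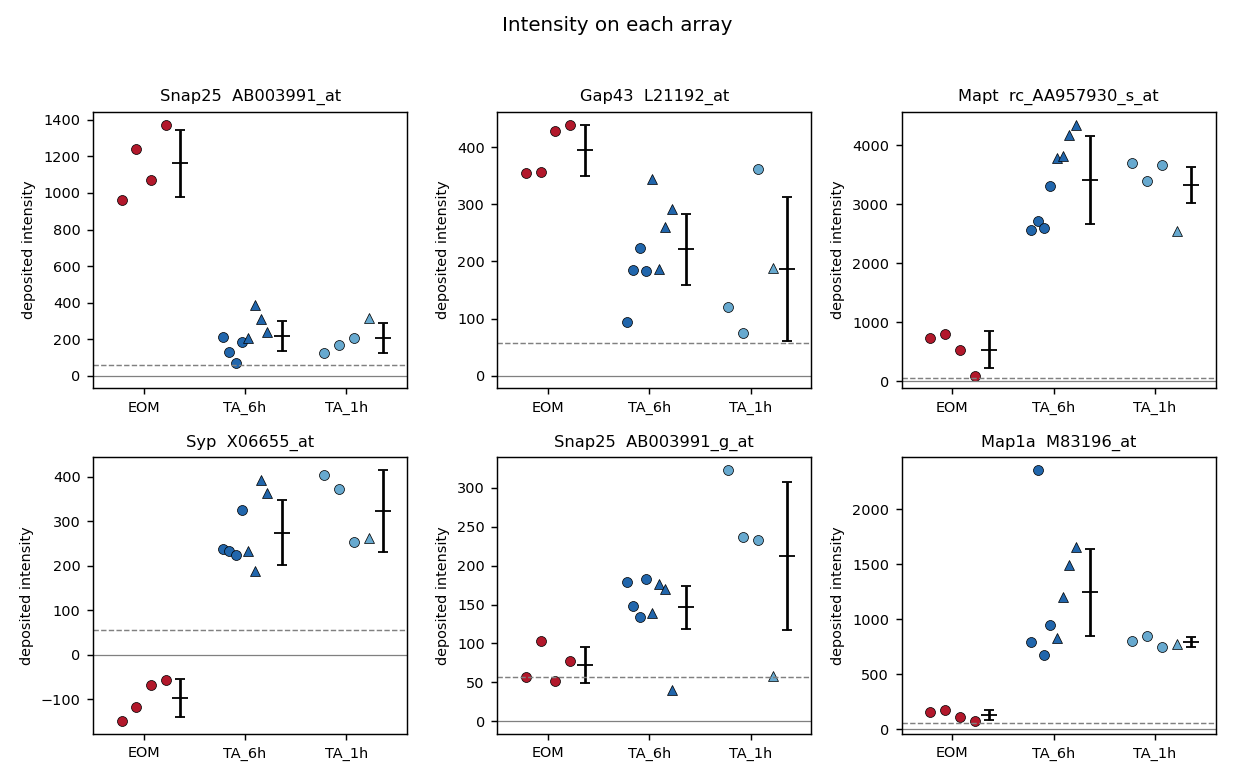
Deposited intensity (vertical axis) of 6 probe sets on every array of EOM, TA_6h and TA_1h. Triangles are TA arrays of low beta-actin ratio, the black cross bar is the mean ± SD over numbered samples (n = 4, 4 and 2), the dashed line is the floor of 56.5 and the solid line is 0. Snap25 AB003991_at lies at 961 to 1374 in EOM and at 72.5 to 385 in TA_6h, while Mapt rc_AA957930_s_at, Map1a M83196_at and Syp X06655_at have all EOM arrays below all TA arrays.

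Gap43, the growth cone protein, was higher in EOM, by less than Snap25 AB003991_at and less firmly. Its probe set L21192_at had 354, 357, 428 and 439 in EOM. In TA_6h it ran from 94.9 to 344 with a median of 205, and TA_1h gave 121, 74.7, 362 and 189. Every EOM array lay above every TA_6h array, but TA_1h array 2a lay inside the EOM range. EOM averaged 394 ± 45.0 and TA_6h 221 ± 62.7 (SD, n = 4 each), a 1.89-fold difference (log2 0.92 ± 0.33, limma adjusted p = 0.042). Against TA_1h, at 187 ± 126 (n = 2), the log2 difference was 1.32 ± 0.40 (limma adjusted p = 0.027). The call against TA_6h was lost without any 1 of EOM replicates 1 to 4 (0.86 to 0.97) or of TA_6h replicates 1 to 3 (0.70 to 1.01). It was also lost after quantile normalization (0.91) and without the low-ratio TA arrays (1.26). The same happened with no filter and with an intensity trend in the limma fit (0.92 each). With only the low-ratio arrays as TA the value was 0.57. The call was made in 14 of 26 alternatives. Against TA_1h it was lost without EOM replicate 3 (1.28), EOM replicate 4 (1.26) or TA_1h replicate 1 (0.59), after quantile normalization (1.37) and without the low-ratio TA arrays (1.08), and the value was 2.05 without TA_1h replicate 2.

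Most neurofilament probe sets read near or below the floor in both muscles. For the light chain Nefl, AF031880_at read 81.2, 73.5, 100.2 and 259 in EOM. It ran from 29.4 to 194 in TA_6h with a median of 88.5, and gave 59.4, 108, 36.9 and 40.4 in TA_1h. EOM array 4 was the brightest of the 16 and the groups otherwise overlapped. No difference was called, at 0.20 ± 0.40 from TA_6h (limma adjusted p = 0.70) and 0.73 ± 0.49 from TA_1h (limma adjusted p = 0.27), and without EOM replicate 4 the sign of the first turned (-0.21).

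The second Nefl probe set, M25638_s_at, was far below 0 on every EOM array, at -426, -432, -503 and -532. It read 32.2 to 60.6 in TA_6h with a median of 39.0, and 28.1, 26.1, 26.5 and 24.7 in TA_1h. Only 1 of the 16 arrays exceeded the floor, so it was not tested. All its TA_6h arrays lay above all its TA_1h arrays. With nearly all of these values under the floor, no difference between the TA groups can be read from it. Nefm, the medium chain, was measured by Z12152_at, which read -1.11, -59.3, -39.9 and -32.7 in EOM. It ran from 5.01 to 59.6 in TA_6h with a median of 17.4, and gave 32.8, 50.9, 12.3 and 43.5 in TA_1h. It was above the floor on a single TA_6h array and was not tested.

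The heavy chain Nefh had 1 probe set that was called and 1 that was too dim. X13804cds_at read 63.7, 177, 86.2 and 135 in EOM, 194 to 298 in TA_6h with a median of 238, and 169, 72.3, 213 and 319 in TA_1h. All EOM arrays lay below all TA_6h arrays, while TA_1h arrays 1a and 1b lay inside the EOM range. EOM was lower than TA_6h, at 116 ± 50.7 against 239 ± 9.72 (SD, n = 4 each), with a log2 difference of -1.14 ± 0.35 (limma adjusted p = 0.022). The difference from TA_1h was -0.66 ± 0.43 and was not called (limma adjusted p = 0.25). The call against TA_6h was lost without EOM replicate 1 (-0.89) or 3 (-1.04), after quantile normalization (-0.80), and when low-ratio TA arrays were left out (-1.15) and when TA was limited to them (-1.14). It was called in 19 of 26 alternatives. The other Nefh probe set, rc_AA818677_at, read -111, -92.8, -45.4 and -65.5 in EOM, 6.13 to 29.8 in TA_6h with a median of 11.5, and 10.4, 7.99, 7.94 and 12.8 in TA_1h. It was below the floor on all 16 arrays and was not tested.

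**Figure D2:**
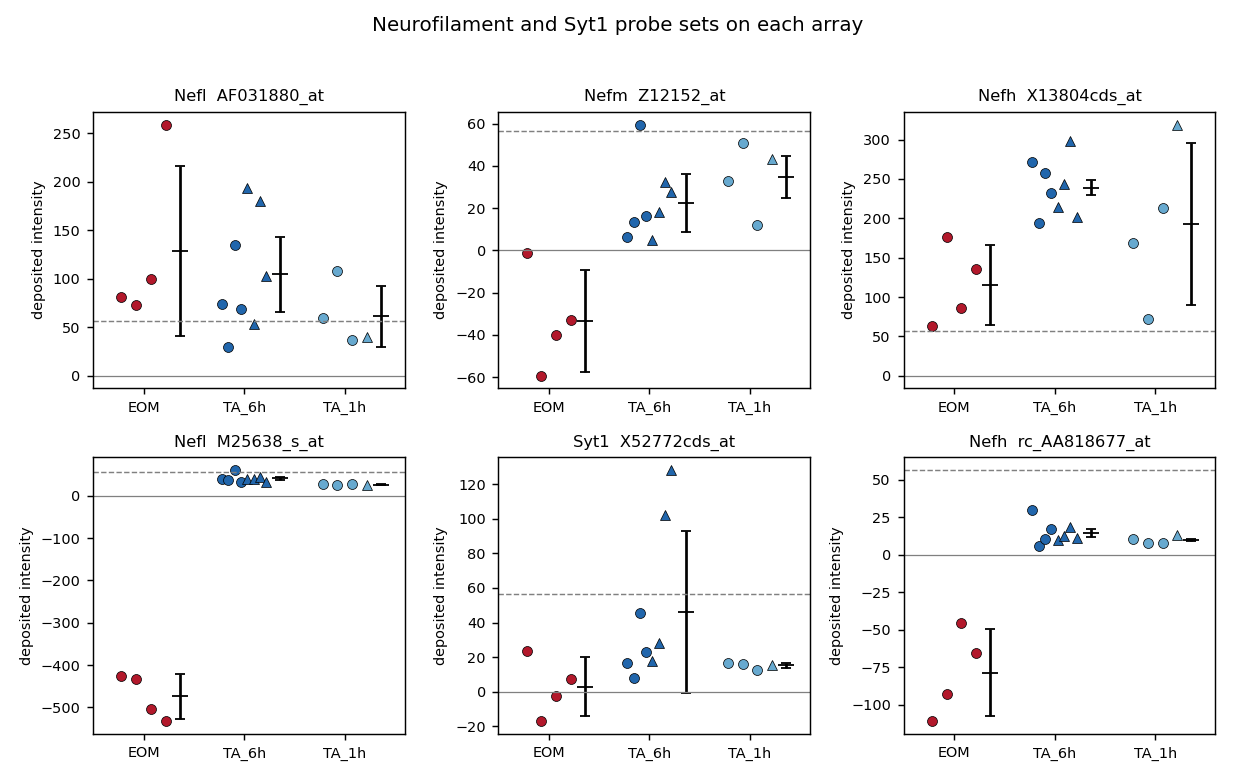
Deposited intensity (vertical axis) of the neurofilament probe sets and of Syt1 on every array of EOM, TA_6h and TA_1h, drawn as in the plot of Snap25, Gap43, Mapt, Syp and Map1a. Most points lie under the dashed floor of 56.5, and Nefl M25638_s_at stands at -532 to -426 in EOM.

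Mapt, the axonal microtubule protein tau, was lower in EOM in all 3 of its probe sets, and each had all EOM arrays below all TA arrays. The largest difference was in rc_AA957930_s_at, with 725, 803, 526 and 92.5 in EOM. TA_6h ran from 2554 to 4348 with a median of 3544, and TA_1h had 3699, 3387, 3669 and 2548. EOM array 4 stood well below the other EOM arrays. The means were 537 ± 318 in EOM and 3408 ± 750 in TA_6h (SD, n = 4 each), and the log2 difference was -3.03 ± 0.60 (limma adjusted p = 0.0023). Against TA_1h, at 3326 ± 307 (n = 2), it was -3.00 ± 0.73 (limma adjusted p = 0.0096). Without EOM replicate 4 the values were -2.31 and -2.29, both called, and the call against TA_1h was lost without TA_1h replicate 1 (-2.90), without TA_1h replicate 2 (-3.11) and with TA_1h array 2b as that whole group (-2.63).

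The Mapt probe set rc_AI227608_s_at had 247, 288, 278 and 176 in EOM, 798 to 1338 in TA_6h with a median of 1196, and 1019, 1198, 902 and 981 in TA_1h. EOM array 4 was again the lowest, and the EOM and TA ranges stood far apart. The log2 difference was -2.17 ± 0.21 against TA_6h (limma adjusted p = 3.09e-05) and -2.07 ± 0.26 against TA_1h (limma adjusted p = 0.000228), and it was called in all 26 alternatives of both comparisons. The third Mapt probe set, X79321_at, read 327, 461, 371 and 348 in EOM, 814 to 2363 in TA_6h with a median of 1282, and 982, 1019, 953 and 716 in TA_1h. TA_6h arrays 3a, 3b, 4a and 4b, which are the low-ratio arrays, were its brightest. EOM was lower by -1.88 ± 0.26 than TA_6h (limma adjusted p = 0.000247) and by -1.28 ± 0.31 than TA_1h (limma adjusted p = 0.0096). The difference from TA_6h was -1.44 without the low-ratio arrays and -2.31 with only those as TA, and the call against TA_1h was lost without TA_1h replicate 1 (-1.15).

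Map1a, a large microtubule-binding protein of mature axons and dendrites, was lower in EOM in both of its probe sets. M83196_at read 153, 176, 109 and 73.4 in EOM. It ran from 672 to 2357 in TA_6h with a median of 1074, and TA_1h gave 801, 848, 744 and 779. The brightest EOM array was far under the dimmest TA array, and TA_6h array 1b was the highest of all. EOM averaged 128 ± 45.7 and TA_6h 1244 ± 393 (SD, n = 4 each), a log2 difference of -3.24 ± 0.31 (limma adjusted p = 2.43e-05). Against TA_1h, at 793 ± 44.8 (n = 2), it was -2.71 ± 0.38 (limma adjusted p = 0.0004). The second probe set, X66840cds_s_at, had 13.6, 25.9, 19.2 and 0.256 in EOM, 60.8 to 294 in TA_6h with a median of 149, and 171, 112, 138 and 27.0 in TA_1h. All EOM arrays were below the floor, so EOM was at least 2.35-fold lower than TA_6h (limma adjusted p = 0.0012). With TA_1h array 2b at its own value under the floor, EOM was at least 1.63-fold lower than TA_1h. The test against TA_1h used floored values, with a log2 difference of -0.97 (limma adjusted p = 0.018). Such bounds move with the floor: the log2 difference from TA_6h was -2.91 when the floor was the 10th percentile and -0.32, not called, when it was the 40th. Against TA_1h these values were -2.38, called, and -0.096, not called. That call was also lost without TA_1h replicate 1 (-0.64), after quantile normalization (-0.76) and with TA_1h array 2b, itself under the floor, as that whole group (0), and it was made in 18 of 25 alternatives.

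Of the 10 genes, 4 had an entry in the RefSeq promoter table (Map1a, Syp, Syt1 and Stx1a, build GRCr8). The 250 bases before the annotated start are shown for Map1a and Syp, chosen after their values were seen because every EOM array of their probe sets lay below every TA array. Map1a lies at chr3:128722445-128722694 on the plus strand and Syp at chrX:17536450-17536699 on the minus strand, each printed 5′ to 3′ along the gene. Capitals mark the GC box, the letters GGGCGG on either strand.
Map1a: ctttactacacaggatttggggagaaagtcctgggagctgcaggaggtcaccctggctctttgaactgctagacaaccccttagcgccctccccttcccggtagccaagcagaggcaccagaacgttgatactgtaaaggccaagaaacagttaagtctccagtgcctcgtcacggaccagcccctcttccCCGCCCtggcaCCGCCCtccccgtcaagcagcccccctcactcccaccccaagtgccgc
Syp: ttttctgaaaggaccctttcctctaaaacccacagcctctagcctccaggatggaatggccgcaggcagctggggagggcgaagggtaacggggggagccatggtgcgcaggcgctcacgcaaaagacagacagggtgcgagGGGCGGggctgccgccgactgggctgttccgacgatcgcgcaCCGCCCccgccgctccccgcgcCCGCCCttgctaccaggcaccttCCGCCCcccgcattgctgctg
The Map1a stretch held 2 GC boxes and was 60.4% G and C, and the Syp stretch held 4 and was 68% G and C. A GC box was present in 30.47% of 33469 promoter stretches of this length. Syt1 held 3, 2 of them side by side, and Stx1a held 4. The CAGCACC part of the element bound by the neuronal repressor REST and the cyclic AMP element (TGACGTCA), searched on both strands, were in none of the 4 stretches, and in 5.435% and 1.587% of all. A match is a description of letters and not of a bound site.

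Syp, the vesicle membrane protein synaptophysin, was lower in EOM and below 0 on all 4 EOM arrays. X06655_at read -149, -116, -66.95 and -56.3 in EOM. It ran from 189 to 392 in TA_6h with a median of 235, and gave 404, 373, 253 and 263 in TA_1h. Every TA array was above the floor and every EOM array under it. EOM was therefore at least 4.71-fold lower than TA_6h (limma adjusted p = 2.43e-05) and at least 5.6-fold lower than TA_1h (limma adjusted p = 7.33e-05). The log2 difference from TA_6h was -4.25 when the floor was the 10th percentile and -0.99 when it was the 40th, and that from TA_1h was -4.50 and -1.23. It was called in all 25 alternatives in which it was tested.

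Syt1, the calcium sensor of fast release, was too dim to test. X52772cds_at read 23.8, -17.0, -2.61 and 7.59 in EOM, 7.78 to 128 in TA_6h with a median of 25.6, and 16.6, 16.1, 12.7 and 15.3 in TA_1h. It exceeded the floor on TA_6h arrays 4a and 4b alone, both of low beta-actin ratio.

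Stx1a, the partner of Snap25 in the terminal membrane, gave no called difference in either probe set. D10392_i_at read 345, 490.2, 365 and 548 in EOM, 283 to 544 in TA_6h with a median of 355, and 505, 479.8, 535 and 322 in TA_1h. The groups overlapped throughout, with differences of 0.19 ± 0.20 from TA_6h (limma adjusted p = 0.46) and -0.076 ± 0.25 from TA_1h (limma adjusted p = 0.84). D12519_s_at scattered within EOM, at 221, -232, -170.02 and 107. In TA_6h it ran from 89.0 to 313 with a median of 134, and TA_1h gave 191, 229.8, 239 and 170.1. EOM arrays 2 and 3 were far below 0 while EOM array 1 lay among the TA arrays. The log2 difference was -0.60 ± 0.44 from TA_6h (limma adjusted p = 0.28) and -1.14 ± 0.54 from TA_1h (limma adjusted p = 0.12), but without EOM replicate 1 both were called (-1.02 and -1.55).

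**Figure D3:**
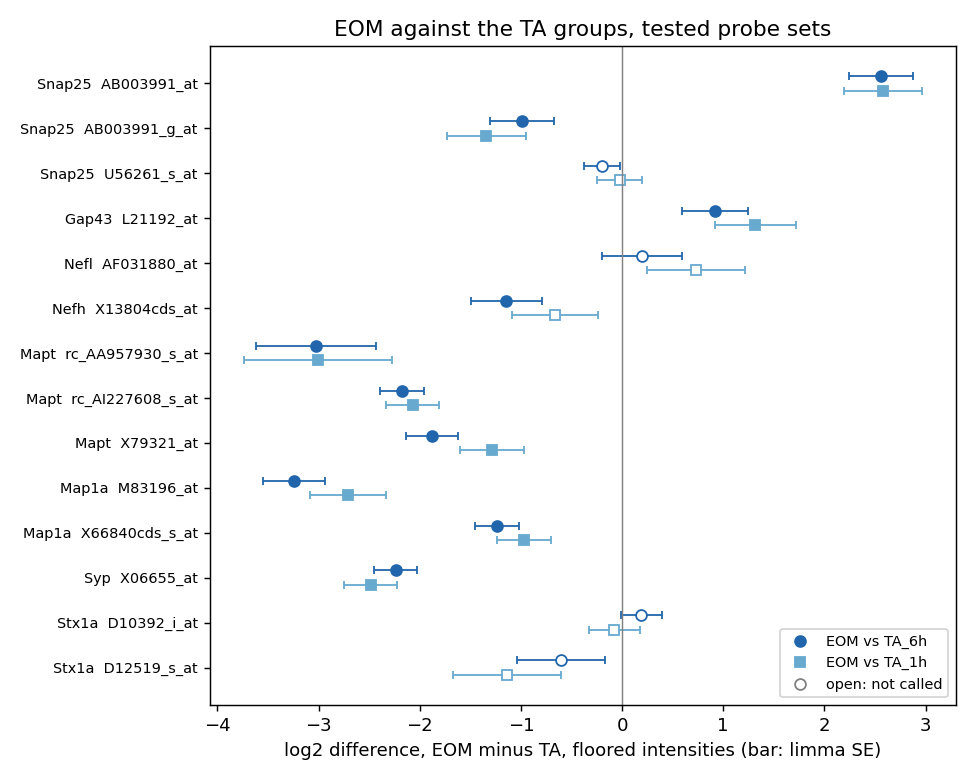
Log2 difference of EOM from TA_6h (circles) and from TA_1h (squares) for the 14 tested probe sets, on floored intensities, with limma standard errors as bars and open symbols where the adjusted p was 0.05 or more. Snap25 AB003991_at (2.56 and 2.58) and Gap43 lie right of 0, while Mapt, Map1a and Syp lie left of it, down to -3.24 for Map1a M83196_at.

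Because values below 0 occurred in EOM only, the place of each probe set within its own array was read as well, an addition made after the data were seen. Snap25 AB003991_at stood at percentiles 78.6 to 82.9 in EOM, against 26.2 to 64.3 in TA_6h and 33.9 to 62.3 in TA_1h. Mapt rc_AA957930_s_at stood at 37.9 to 74.8 in EOM, against 90.5 to 93.6 in TA_6h and 90.9 to 92.96 in TA_1h. Syp stood at 9.61 to 18.0 in EOM, against 48.2 to 63.2 in TA_6h and 52.9 to 61.8 in TA_1h. For these 3 the order of the muscles by percentile was that of their intensities. Gap43, above the floor on all 16 arrays, stood at 59.3 to 64.5 in EOM, against 29.4 to 62.5 in TA_6h and 27.6 to 61.0 in TA_1h. By percentile its EOM arrays thus overlapped those of TA_6h, which they did not by intensity. Some of the dimmest probe sets changed their order. Snap25 AB003992_s_at, whose intensity was lower in EOM, stood at percentiles 19.9 to 23.9 there, against 0.269 to 7.12 in TA_6h and 0.749 to 2.33 in TA_1h. Nefh rc_AA818677_at likewise stood at 11.8 to 17.7 in EOM, against 1.55 to 10.8 in TA_6h and 1.91 to 4.87 in TA_1h. Nefl M25638_s_at kept the order of its intensities, at 2.97 to 4.54 in EOM, 10.7 to 23.1 in TA_6h and 8.74 to 12.5 in TA_1h. The percentiles of Map1a X66840cds_s_at, 24.4 to 28.9 in EOM, overlapped those of TA_6h, 20.8 to 54.4, and of TA_1h, 13.5 to 40.8. No order of the muscles can be read for probe sets that lie under the floor in both.

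**Figure D4:**
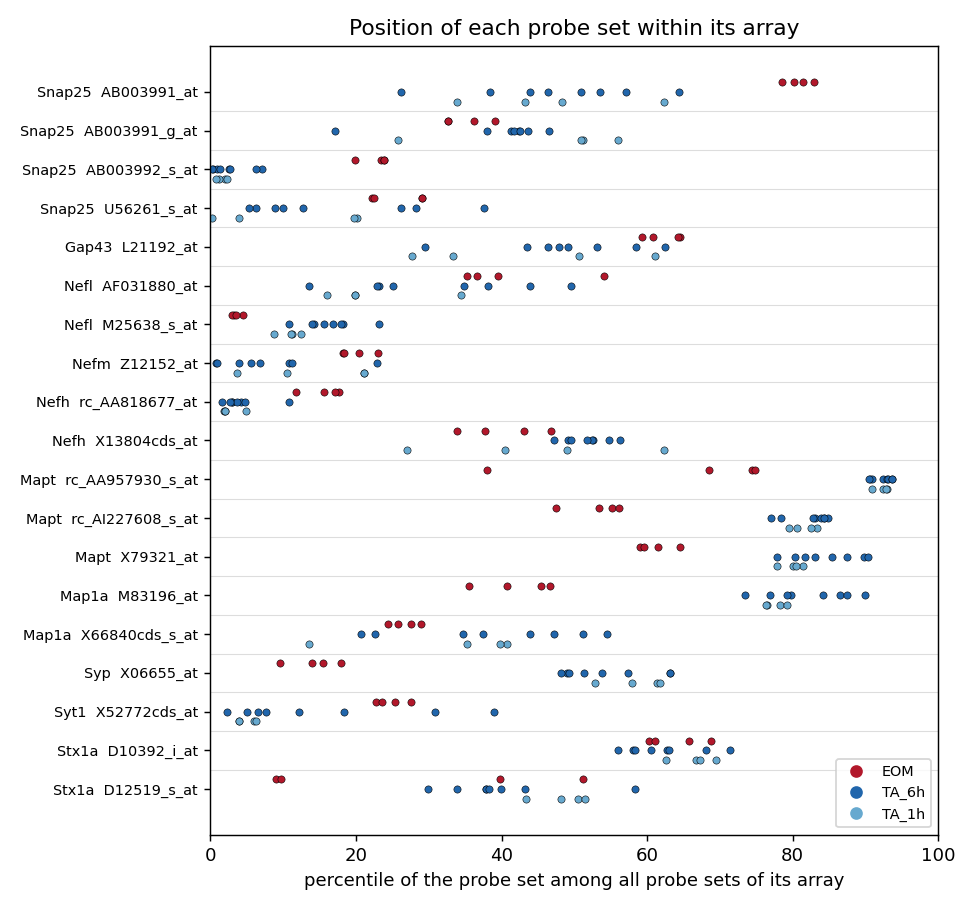
Percentile of each of the 19 probe sets among all probe sets of its own array (horizontal axis), 1 point an array, with EOM above TA_6h and TA_1h in each row. Snap25 AB003991_at stands at 78.6 to 82.9 in EOM and right of all TA arrays, and the Mapt sets, Map1a M83196_at and Syp stand left of all TA arrays.

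TA collected at 6 hours did not differ from TA collected at 1 hour by a limma call in any of the 14 probe sets. The log2 differences, TA_6h minus TA_1h, ran from -0.54 for Stx1a D12519_s_at to 0.59 for Mapt X79321_at, whose limma adjusted p was 0.95. Over all 7640 tested probe sets 0 were called (0%) by limma, and 424 had an unadjusted p under 0.05, of which 0 were members. The median difference of the 14 was 0.14 and that of all tested probe sets 0.013. TA_1h has 2 numbered samples, which limits what this comparison can show. With TA limited to the arrays of low beta-actin ratio, where TA_1h is array 2b alone and is assumed to vary like the others, Mapt X79321_at (1.37, limma adjusted p = 0.031) and Map1a X66840cds_s_at (1.16, limma adjusted p = 0.017) were called higher at 6 hours, among 681 calls in all. Without those arrays 0 members and 45 of all were called.

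Other genes of the same processes were called in both directions between EOM and TA_6h, as were probe sets over the whole array. The list of further neuronal cytoskeleton and axon genes had 24 of its 36 genes on the array, in 49 probe sets of which 39 were tested. EOM was higher in 9, lower in 3 and not called in 27, where 21.9% of all tested probe sets were higher and 25.3% lower. The median was -0.16, beside -0.11 over all tested probe sets. The largest higher values were in U30938_at of Map2, a microtubule protein of dendrites (2.82 ± 0.14, SE, limma adjusted p = 4.82e-07), U81037_at of Nrcam, an axonal adhesion molecule (2.30), and rc_AA899253_at and rc_AA925762_at of Marcks, an actin-linked kinase substrate (2.24 and 2.07). U30938_at of Map2 read 367 to 456 in EOM, against 11.8 to 70.7 in TA_6h, where 2 of 8 arrays exceeded the floor. Lower was AF069525_at of Ank3, an ankyrin of the axon initial segment (-0.85). X66845_at of Dync1i1, a dynein chain, and D10699_g_at of Uchl1, a neuronal ubiquitin hydrolase, were under the floor on all EOM arrays. With TA_6h arrays at their own values, they were at least 2.31-fold and at least 1.82-fold lower. The named probe sets are the called ones farthest from 0. The other tested probe sets of Marcks, Ank3 and Uchl1 were not called. Uchl1 D10699_at was above the floor on all 4 EOM arrays (-0.29). Map2 S74265_s_at was higher (0.77), and Map2 rc_AI228850_s_at was not called.

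The list of synaptic vesicle and release genes had 54 of its 62 genes on the array, in 75 probe sets of which 62 were tested. EOM was higher in 12, lower in 22 and not called in 28, beside the same 21.9% higher and 25.3% lower of all tested. The median was -0.14. The values that follow are those of each gene's probe set farthest from 0. Higher were Rab3b (2.48), a GTPase of regulated secretion, Rims1 (2.25), an active zone scaffold, Stx3 (2.10), a syntaxin, and Rab3a (1.71), the vesicle GTPase of neurons. Lower were Syngr1 (-3.12), a relative of synaptophysin, Syt3 (-3.04), a synaptotagmin, Synj1 (-2.86), a phosphatase of vesicle recycling, and Bin1 (-2.56), an amphiphysin that also shapes the membrane tubules of muscle fibres. The EOM arrays lay partly at the floor for Syngr1 and Synj1 (1 of 4 above it) and Syt3 (2 of 4), and the TA_6h arrays for Rab3b and Rims1 (2 of 8 above it) and Stx3 (3 of 8), so these sizes are lower limits. Against TA_1h the counts were 8 higher and 2 lower for the cytoskeleton list and 9 higher and 19 lower for the vesicle list. Of all tested probe sets, 17.7% were higher and 19.5% lower in EOM than in TA_1h.

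Markers of other cells that whole muscle can hold were read beside these values, as shares of their tested probe sets, where 21.9% of all tested were higher and 25.3% lower in EOM than in TA_6h. The list for Schwann cells and myelin had 8 of 16 higher and 4 lower. Its summed intensity, with values below 0 set to 0, was 14920 to 19532 on EOM arrays, against 8812 to 11129 in TA_6h and 6841 to 10955 in TA_1h. Most of that gap came from S55427_s_at of Pmp22, a myelin protein, which averaged 7562 in EOM and 1007 in TA_6h. Without it, a sum added after the values were seen, the ranges overlapped at 7994 to 10307 in EOM, against 8112 to 9868 in TA_6h and 5925 to 9568 in TA_1h. That reduced sum still held U25650_f_at of Ngfr, which averaged 1728 in EOM and 3690 in TA_6h. The factor Sox10 of this list read 297 to 338 in EOM and lay under the floor on all TA arrays. Also higher than in TA_6h were S53527mRNA_s_at of S100b (3.17), Mbp (3.09), Cnp (1.96), Mal (1.68) and Prx (1.65). The other probe sets of S100b and Pmp22 were not called. Lower in EOM were both probe sets of the neurotrophin receptor Ngfr (-1.17 and -0.86), U97142_at of the receptor Gfra1, which was under the floor on all EOM arrays, and X06554cds_s_at of the myelin glycoprotein Mag (-0.69), while M22357_g_at of Mag was higher (0.51). The list for neuronal cell bodies and neuroendocrine cells had 0 of 14 higher and 4 lower, the latter a share close to that of all tested. Its sums were 466 to 1140 in EOM, against 2014 to 3107 in TA_6h and 2483 to 2649 in TA_1h, again with values below 0, found in EOM only, set to 0. The 4 were Th, the enzyme of catecholamine synthesis, the glutamate receptor probe sets S39221_g_at of Grin1 and S56679_s_at of Gria1, and S69329_at of Isl1, a motor neuron transcription factor. In EOM those of Grin1 and Gria1 were under the floor on all arrays, and Th and Isl1 exceeded it on 1 and 2 of 4. The other tested probe sets of Grin1, Gria1 and Isl1 were not called. The list for retina, lens and lacrimal gland had 3 of 13 higher and 3 lower, shares close to those of all tested probe sets. Higher were Rom1, a photoreceptor membrane protein (2.50), Krt5, a keratin of epithelia (1.83), and AF054270_at of Pip, a secretory protein (1.48). Lower were Muc1, X57169_i_at of Crygd and X60351cds_s_at of Cryab. The part of these cells in the values of Snap25, Gap43, Mapt, Map1a and Syp was not tested.

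For the 8 probe sets that exceeded the floor on each of the 16 arrays, the probe sets of other genes with the most similar pattern over the 10 numbered samples were listed by Pearson's r of log2 intensity, as a description with no test. The samples fall into EOM and TA, and r mostly follows that split. Snap25 AB003991_at was closest to Atp1b1 (r = 0.98), Cd86 and Gas7, and Gap43 to Rpp21 (r = 0.96), Echs1 and Plpp3. Mapt rc_AA957930_s_at was closest to Plcd4 (r = 0.99), rc_AI227608_s_at to Nolc1 (r = 0.99) and X79321_at to Pdk2 (r = 0.98). Map1a M83196_at was closest to Cdc34 (r = 0.99), Nolc1 and Mapk12. Nefh X13804cds_at reached r = 0.90 with Gng8, and Stx1a D10392_i_at r = 0.85 with Dgkh.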

How the data were processed

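RNA of rat muscle was measured on 16 single-colour arrays. The deposited file holds linear intensities, 1 for each probe set on each array. The authors' summary of probes to these intensities is not given in the sources used. The intensities were used as deposited, since the mean of each array without its highest and lowest 2% was close to 801 throughout (801.1 to 801.8). Gene symbols came from the platform's probe table: 7018 probe sets have 1 symbol, 308 several and 1473 are unlisted. All 19 rows matched a current RefSeq gene.

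Values were raised to the 25th percentile, 56.5, and log2 was taken. Arrays of the same group and number were averaged. TA_6h arrays 1 and 2, without a letter, were joined with 1b and 2b, which is an inference. After the 59 controls were dropped, the 7640 probe sets that exceeded the floor on 4 or more arrays were fitted in limma 3.58.1 (R 4.3.3, lmFit and eBayes) over all 3 groups, with 7 residual and 2.83 prior degrees of freedom. P-values were adjusted by Benjamini-Hochberg over all of them, with calls under 0.05. Errors of differences are limma standard errors. The fit was tested on simulated data. Alternatives changed normalization, floor, filter, samples and batch terms. All probe sets of the 10 genes were named, with up to 4 called probe sets per direction of 2 further lists. The members and lists were chosen with earlier results of these data known. The number of arrays limits precision. Python 3.11.15 with matplotlib 3.10.9 drew the plots.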

Additional observations from a re-analysis of the deposited data

Results flagged for a closer look

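In AB003991_g_at of Snap25, TA_6h sample 4 had a log2 value of 6.61, far below the other 3 TA_6h samples, of which the nearest was 7.29 (Dixon ratio 0.92). In U56261_s_at of Snap25, TA_6h sample 3 had 6.50, far above the nearest at 5.93 (ratio 0.84), where most TA_6h arrays lay at the floor. Both samples are on arrays of low beta-actin ratio, and the part of that in the values was not tested. The test marks about 1 in 20 groups by chance, and 14 probe sets were examined in EOM and TA_6h.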

How the results depend on the processing

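Over all alternatives limma called 7 to 11 of the member probe sets between EOM and TA_6h, 4 to 11 between EOM and TA_1h and 0 to 2 between the TA groups. Snap25 AB003991_at, all Mapt probe sets, Map1a M83196_at and Syp kept their direction in every alternative that compared EOM with TA and tested them. Gap43, Nefh X13804cds_at and Stx1a D12519_s_at kept theirs too, though their calls changed between alternatives or were mostly not made. Requiring a value above the floor on all 16 arrays gave 1927 calls in all between EOM and TA_6h, 1512 between EOM and TA_1h and 1 between the TA groups. Between the TA groups, calls in all were 8 with no filter, 1 with each array or each unlettered array as its own sample, 45 without the low-ratio TA arrays, 681 with only those (2 of them members), 11 with that ratio as a batch term and 6 without the arrays of low middle Gapdh. Leaving out 1 replicate gave 7 to 10 members and 3156 to 3514 calls in all between EOM and TA_6h, 4 to 10 and 1861 to 3045 between EOM and TA_1h, and 0 to 1 between the TA groups. Replicate numbers did not pair EOM with TA (correlations of deviations 0.021 to 0.105 for TA_6h, and 0.037 and -0.044 for TA_1h). Between TA_6h and TA_1h the correlations had opposite signs, at 0.39 for number 1 and -0.42 for number 2. With the number as a replicate block 9, 8 and 0 members were called, with 3507, 2540 and 0 in all. Another scaling shifted the median of all probe sets to 0.03 (quantile) and 0.0036 (same median) between EOM and TA_6h. The signs that turned were mostly of differences that were not called. Between EOM and TA, they were Snap25 U56261_s_at after quantile normalization (0.013 and 0.23), with the same median (0.076) and with the batch term (0.061), Nefl AF031880_at with only low-ratio TA arrays (-0.097) and over single left-out replicates (-0.21 to 0.40), and Stx1a D10392_i_at against TA_1h with the same median (0.023), with only low-ratio TA arrays (0.41), without the low Gapdh arrays (0.13) and over left-out replicates (-0.20 to 0.048). The exception was the called Snap25 AB003991_g_at against TA_1h with only low-ratio TA arrays (0.28). Between TA_6h and TA_1h, the sign turned for Snap25 AB003991_at with unlettered arrays apart (-0.15), the replicate block (-0.27), without and with only low-ratio arrays (-0.33 and -0.20), the batch term (-0.28), without low Gapdh arrays (-0.32) and over left-out replicates (-0.40 to 0.43), and for Mapt rc_AA957930_s_at after quantile normalization (-0.0084), with unlettered arrays apart (-0.067), without low-ratio arrays (-0.38) and over left-out replicates (-0.095 to 0.14). It also turned for Snap25 U56261_s_at (-0.023) and Gap43 (-0.18) without low-ratio arrays, for Snap25 AB003991_g_at with only those (1.09), the batch term (0.034) or without low Gapdh arrays (0.24), and with only low-ratio arrays for Nefh X13804cds_at (-0.43), Syp (0.096) and Stx1a D10392_i_at (0.21). Mapt rc_AI227608_s_at turned without low Gapdh arrays (-0.0098). Left-out replicates spanned -0.98 to 0.27 for Snap25 AB003991_g_at, -0.33 to 1.13 for Gap43, -0.14 to 1.10 for Nefh X13804cds_at, -0.54 to 0.045 for Syp, -0.0093 to 0.25 for Mapt rc_AI227608_s_at and -0.060 to 0.59 for Map1a X66840cds_s_at. The causes were not tested. Signal near the floor limits the neurofilament, Syt1 and Syp values.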
